A study of Mus musculus with 6 samples.

Results

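Imprinted genes are genes of which the maternal or the paternal copy is transcribed in preference to the other. The 41 genes described here were taken by name from the deposited table, which had 27179 entries, and all 41 were found in it. RNA came from nephron progenitors, the Six2-expressing cells of the fetal kidney that give rise to nephrons. They were sorted from E16.5 mouse kidneys by the green fluorescence of Six2TGC, described below. Control progenitors had the Six2TGC allele, and mutant progenitors were Six2TGC;miR-17~92fl/fl, so that both groups carried Six2TGC and the mutants also carried floxed copies of the microRNA cluster that this genotype names. Six2TGC is a transgene that drives a fusion of green fluorescent protein and Cre recombinase in Six2-expressing cells, where Cre removes floxed DNA. For the controls no floxed copies are named, and neither strain nor sex is given in the sources used here. Each genotype had 3 libraries, each from a pool of 4 embryos. Values are RPKM, reads per kilobase of gene length scaled to library depth, and the depth worked out from them was 27.6 to 36.1 M reads per library. The question addressed is which of these transcripts differ between progenitors with and without the floxed cluster.

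Imprints are marks of DNA methylation set in the germ line at imprinting control regions, and they are kept through later cell divisions. Imprinted genes lie in clusters in which a control region, often with a long non-coding RNA, sets which parental copy is read. Many of them act on fetal and placental growth: Igf2, a growth factor, is read from the paternal copy, while Igf2r, which clears it, and Grb10, which dampens signalling from growth factor receptors, are read mainly from the maternal copy. RPKM sums both copies of a gene, so which copy was read was not measured.

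The targeted locus and the cell type were checked first. Mir17, the first microRNA of the cluster, was at 12.5, 8.57 and 6.77 RPKM in controls and at 0.787, 0 and 0 in mutants. Its host transcript Mir17hg went the other way, from 45.4, 33.6 and 52.9 RPKM to 259, 183 and 194. Summed RPKM of 8 nephron progenitor markers was 680 to 738 in controls and 530 to 623 in mutants. Six2 itself was at 83.5, 69.9 and 104 RPKM in controls and at 63.5, 57 and 77 in mutants. Mitochondrial ribosomal RNA took 27 to 30.4% of control reads and 32.2 to 38.2% of mutant reads. Xist, the RNA of the inactive X chromosome, was at 154, 0.034 and 0.028 RPKM in controls and at 60.1, 180 and 122 in mutants, so that it was near 0 in control pools 2 and 3 only.

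Levels of the 41 genes spanned the range of the transcriptome. Mest, which encodes an enzyme of the alpha/beta hydrolase fold, had a mean of 753 RPKM over the 6 libraries and ranked 16 of the 27179 entries. Igf2 followed at 429 RPKM (rank 34), the signalling adaptor Grb10 at 384 (rank 39) and the long non-coding RNA H19 at 356 (rank 44). Gnas, which encodes the stimulatory G protein alpha subunit, had a mean of 126 RPKM (rank 198), and the zinc finger gene Peg3 had 104 (rank 272). At the other end, 10 genes lay under the minimum of 0.5 RPKM on the mean over all libraries that was set for testing. Those were Dlk1, Rtl1, Dio3, Usp29, Magel2, Snrpn, Kcnq1, Phlda2, Slc22a18 and Nap1l5. The value of Snrpn, which shares exon bases with other entries, cannot be read as its level, as described below. Usp29, at 0.499 RPKM, was the gene just under that minimum, and Mirg, at 0.583, the gene just above it.

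**Figure D1:**
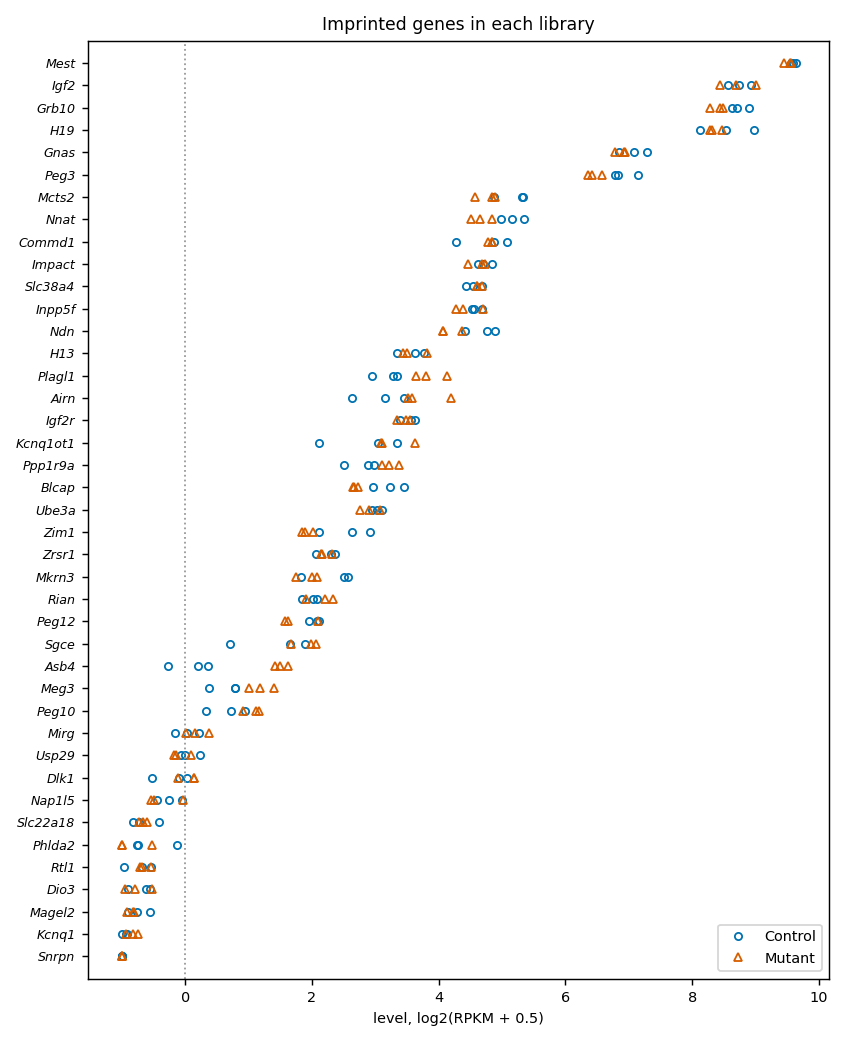
RPKM of the 41 imprinted genes in each library, on a log2(RPKM + 0.5) axis, with 1 symbol per library (circles for controls, triangles for mutants); the dotted line marks the minimum mean of 0.5 RPKM. Mest, Igf2, Grb10 and H19 lie at the upper end, 10 genes lie under the line on their mean, and the groups of Asb4 lie apart.

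Of the 31 imprinted genes tested, 1 rose in mutants, none fell and 30 did not pass the test. The test was limma on log2(RPKM + 0.5) over 13463 genes at a Benjamini-Hochberg adjusted p under 0.05, and it called 3.13% of all genes tested (178 higher, 1.32%, and 244 lower, 1.81%). One call among 31 is close to that background. At an unadjusted limma p under 0.05, 12 of the 31 were found (5 higher, 7 lower), beside 19.6% of all genes (5.94% higher and 13.7% lower). Mutant and control libraries did not overlap for 11 of the 31 (5 with mutants above, 6 with mutants below), beside 25.1% of all genes (7.06% above and 18.0% below). The median log2 difference (mutant minus control, as means of log2(RPKM + 0.5)) was -0.07 over the 31, with a range of -0.64 to 1.42, and -0.12 over all 13463 genes. Since most genes were slightly negative on this scale, 13 of the 31 were above 0 while 19 were above the median of all genes. Median-of-ratios scaling put the median of all genes at -0.03, quantile normalization at -0.02, and a depth without mitochondrial ribosomal RNA also at -0.02. The direction of most calls over all genes turned with it. In that order, 262 genes were called higher and 172 lower, 264 and 163, and 267 and 152. In bulk RNA, fewer cells of a type and less RNA per cell cannot be told apart. The genes were also split by the copy listed as read, which for some, such as Ube3a and Blcap, is known from other tissues. By that list, 1 of 13 tested maternally read genes and 0 of 17 tested paternally read genes passed, with medians of 0.00 and -0.08. By limma's voom on recovered whole reads, 4 of the 31 passed: Asb4, Plagl1 and Meg3 higher, and Peg3 lower, beside 5.11% of all genes.

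**Figure D2:**
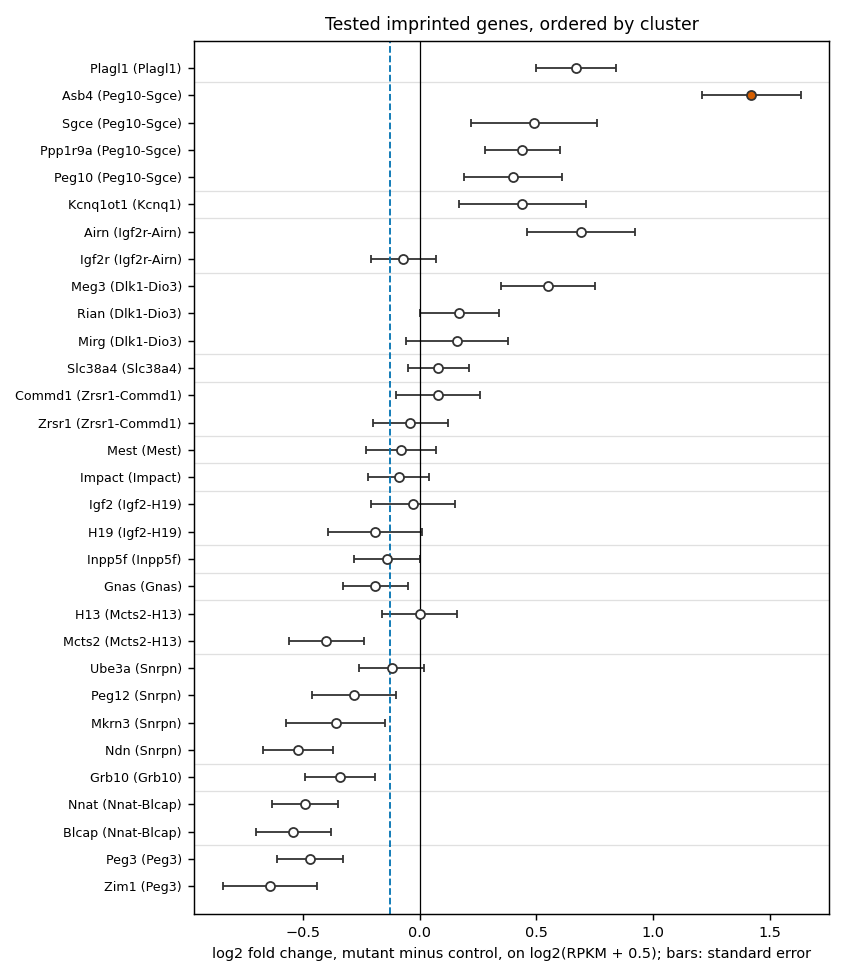
Log2 fold change (mutant minus control, on the log2(RPKM + 0.5) scale) of the 31 tested imprinted genes, with standard errors from limma; filled points passed an adjusted p under 0.05 and the dashed line is the median over all 13463 genes. Asb4 stands at 1.42, and the other 30 genes lie between -0.64 and 0.69.

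The gene that rose was Asb4 (Entrez Gene 65255), which encodes an ankyrin repeat and SOCS box protein, a family that brings substrates to a ubiquitin ligase. The gene lies at chr6:5383386-5433022 (mm10), in the Peg10-Sgce cluster. Asb4 was at 0.785, 0.648 and 0.325 RPKM in controls and at 2.17, 2.33 and 2.58 in mutants, from 76, 77 and 30 reads and from 216, 213 and 234 reads. All mutant libraries lay above all controls, and the lowest mutant value was well over the highest control value. Its mean went from 0.586 ± 0.236 to 2.36 ± 0.205 RPKM (SD, n = 3 each), a ratio of means of 4.03. The log2 difference was 1.42 (SE 0.21; limma adjusted p = 0.00356). Asb4 passed in 16 of the 17 alternative analyses. With a term for Xist, an alternative chosen after seeing the data, its log2 difference was 1.17 and its limma adjusted p 0.125; the adjusted p ranged from 0.000261 to 0.125 over the alternatives.

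Macrophage and leukocyte markers were also higher in mutants. All 9 had the higher mean there, their summed RPKM was 5.1 to 8.02 in controls and 12.4 to 14.9 in mutants, and Tyrobp and C1qb were at 0 in some library. Of these, Fcer1g rose from 0.773, 0.715 and 0.703 RPKM to 2.41, 2.3 and 2.53 (limma adjusted p = 0.00264), Ctss from 0.225, 0.347 and 0.0525 to 1.95, 1.14 and 1.6 (0.0046), and Tyrobp from 0.715, 0.584 and 0 to 1.45, 1.58 and 1.59 (0.0491). The calls of Fcer1g and Ctss held in 16 of 17 alternatives each and that of Tyrobp in 6. Of 2 neuronal markers tested, 1 passed and 1 did not. The one that passed, Stmn2, was at 0.285, 0.218 and 0.168 RPKM in controls and at 1.06, 0.624 and 1.16 in mutants. Its rise of 0.98 on the log2 scale (limma adjusted p = 0.0409) passed in 10 of the 15 alternatives in which it was tested. Control means of Ctss (0.208 RPKM), Tyrobp (0.433) and Stmn2 (0.224) were under the minimum of 0.5 RPKM. These genes thus entered the test only through their mutant libraries, and their calls are not separate evidence of a rise in these markers. Interstitial markers had the higher mean in mutants for 10 of 10 genes, with sums of 71.8 to 178 RPKM in controls and 134 to 220 in mutants. Control 3 was the lowest of the 6 libraries for the interstitial sum. Among tested imprinted genes it was also the lowest for Asb4, Plagl1, Peg10, Sgce, Rian, H19, Commd1 and Slc38a4. Of the genes under the minimum, it was the lowest for Dlk1, Rtl1, Kcnq1 and Slc22a18. Renal vesicle markers, of the first epithelium that progenitors form, had the higher mean in mutants for 7 of 7 (94.9 to 113 against 102 to 130 RPKM), and Cdh6 rose among them, from 5.56, 5.68 and 5.12 to 10.7, 8.3 and 12.6 RPKM (limma adjusted p = 0.0146; passed in 13 of 17 alternatives). Of the progenitor markers, 1 of 8 had the higher mean in mutants. Meox1 fell from 16.2 ± 0.336 to 8.16 ± 0.937 RPKM (SD, n = 3 each; limma adjusted p = 0.00271; passed in 16 of 17). Endothelial sums were 3.21 to 5.92 and 5.49 to 6.13 RPKM and ureteric bud sums 22.8 to 28.2 and 20.8 to 27.3, in controls and mutants. The mean was higher in mutants for 6 of 7 endothelial and 4 of 7 ureteric bud markers. Wnt9b and Krt8 of the ureteric bud list were at 0 in some library. The part of these cells in the level of Asb4, or of any other imprinted gene, was not tested.

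Asb4 has a pair of promoters in RefSeq (GRCm38.p6). The upstream one is shown since it belongs to the gene that passed. It lies at chr6:5383136-5383435 on the plus strand, with 250 bases before the start and 50 after it. Its CpG dinucleotides, the bases at which mouse DNA is methylated, are in capitals.
Asb4: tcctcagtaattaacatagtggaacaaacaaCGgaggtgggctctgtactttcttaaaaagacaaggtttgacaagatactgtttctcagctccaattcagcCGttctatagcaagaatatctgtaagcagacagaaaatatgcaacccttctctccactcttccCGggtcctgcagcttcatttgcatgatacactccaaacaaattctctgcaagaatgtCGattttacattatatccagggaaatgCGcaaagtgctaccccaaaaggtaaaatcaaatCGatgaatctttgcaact
It held 6 CpGs, and 47.9% of the 32851 promoters of this length in the table held 6 or fewer. The downstream promoter, at chr6:5390160-5390459, held 8. In the 35 imprinted genes with a promoter in the table, the median of the highest CpG count per gene was 17, beside 8 over 27025 genes. Those 27025 genes were not matched to the imprinted genes for gene type or number of promoters. Whether the difference belongs to imprinted genes was not tested. Methylation was not measured.

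The other tested genes of the Peg10-Sgce cluster had positive log2 differences and did not pass the test. Ppp1r9a, which encodes the actin-binding scaffold neurabin, was at 6.9, 5.18 and 7.36 RPKM in controls and at 8.76, 8.07 and 9.84 in mutants. Its groups did not overlap, and its log2 difference was 0.44 (SE 0.16; limma adjusted p = 0.178). Peg10, a gene derived from a retrotransposon, had 1.15, 1.43 and 0.757 RPKM against 1.38, 1.75 and 1.66 (log2 difference 0.40, limma adjusted p = 0.312). Sgce, the epsilon subunit of the sarcoglycan complex, had 2.64, 3.19 and 1.14 RPKM against 2.68, 3.7 and 3.44 (log2 difference 0.49, limma adjusted p = 0.33). For both Peg10 and Sgce the groups overlapped, and control 3 was the lowest library.

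Within 1 Mb of the start of Peg10, a window chosen after values were seen, 12 genes were tested, and those that passed differed in direction. Dync1i1, an intermediate chain of the dynein motor that begins 978 kb from Peg10, was at 8.41, 6.86 and 7.43 RPKM in controls and at 2.81, 2.76 and 3.12 in mutants. It fell by 1.25 on the log2 scale (SE 0.15; limma adjusted p = 0.000969) and passed in 17 of 17 alternatives. Pon2, a paraoxonase gene 517 kb from Peg10, was at 2.04, 1.85 and 1.46 against 3.18, 2.55 and 2.88 RPKM, without overlap (log2 difference 0.56, limma adjusted p = 0.12). Pdk4, which lies just beyond Asb4 and encodes a pyruvate dehydrogenase kinase, had a log2 difference of -0.54 (limma adjusted p = 0.18). The interstitial marker Col1a2 lies on the other side of Sgce and had 0.69 (limma adjusted p = 0.217). Bet1 and Casd1, on that side too, had -0.14 and -0.21, and Pon3, between Ppp1r9a and Pon2, had 0.34. Every tested gene from Sgce to Asb4 thus had a positive value, though only Asb4 of them passed. The tested genes beyond Asb4 were negative. Whether the genes from Sgce to Asb4 changed together was not tested.

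**Figure D3:**
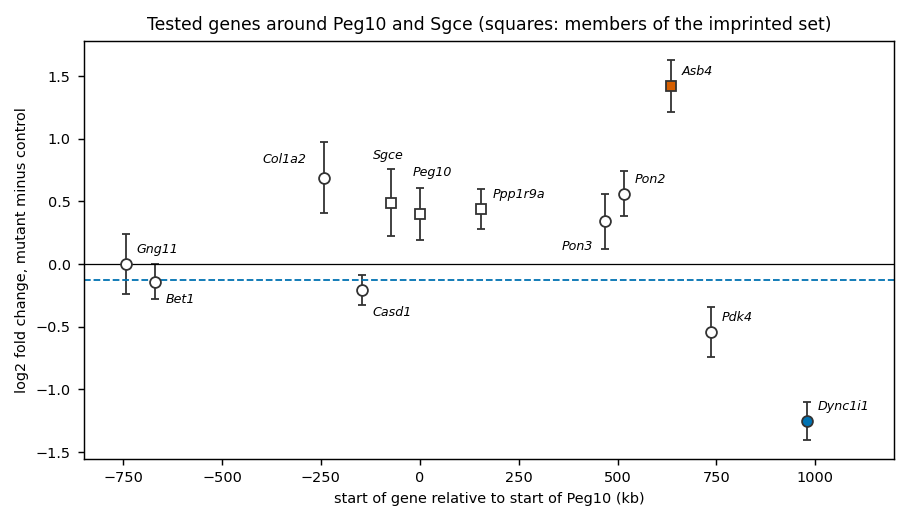
Log2 fold change (mutant minus control) with its standard error for the 12 tested genes within 1 Mb of the start of Peg10, against distance in kb; squares are the 4 imprinted genes of the set, filled points passed an adjusted p under 0.05, and the dashed line is the median of all genes. Asb4 at 636 kb is the highest, and Dync1i1 at 978 kb the lowest at -1.25.

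Among growth factors and receptors, Igf2 was at 380, 428 and 489 RPKM in controls and at 348, 413 and 516 in mutants. The groups overlapped, and the means were 433 ± 54.7 and 426 ± 84.5 RPKM (SD, n = 3 each). Its log2 difference was -0.03 (SE 0.18; limma adjusted p = 0.928), and 0.07 under median-of-ratios scaling and 0.14 after quantile normalization. Igf2 shares 62.8% of its exon bases with the read-through gene Gm49394 on the same strand, so reads of the pair cannot be told apart. Igf2r, the receptor that takes IGF2 to the lysosome, was at 10, 11.9 and 11.3 RPKM in controls and 10.7, 9.66 and 11.2 in mutants (log2 difference -0.07, SE 0.14, limma adjusted p = 0.793). The groups of Igf2r overlapped, and its value was 0.03 under median-of-ratios scaling and 0.05 after quantile normalization. Dlk1, a ligand of the Notch family that is read from the paternal copy, lay under the minimum at 0.522, 0.431 and 0.192 RPKM against 0.598, 0.426 and 0.602.

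Of 12 further genes that bind, carry or respond to IGF2, all were tested, 1 fell and none rose. Over all genes, 3.13% were called and 1.81% were called lower. With 12 genes, 1 call is too few to tell whether the list differs from those shares. Their median was 0.04. The one that fell was Igf2bp1, whose protein binds Igf2 mRNA. It was at 9.82, 9.66 and 9.38 RPKM in controls and at 6.07, 5.73 and 6.72 in mutants, with no overlap and little spread within groups. It fell by 0.60 on the log2 scale (SE 0.14; limma adjusted p = 0.0359). Igf2bp1 passed in 7 of the 17 alternatives, with limma adjusted p from 0.00642 to 0.387 and log2 differences from -0.66 to -0.48. It did not pass without control 1 (limma adjusted p = 0.162), control 2 (0.0563), mutant 1 (0.125), mutant 2 (0.149) or mutant 3 (0.0535). Nor did it pass with the replicate block (limma adjusted p = 0.0591), with the Xist term (0.387), with no filter (0.0711), with no mean-variance trend (0.0526) or with depth without mitochondrial ribosomal RNA (0.0507). Igfbp3, an IGF-binding protein, had a log2 difference of 0.82 (limma adjusted p = 0.251), and its control 3 stood at 1.02 RPKM beside 4.19 and 5.02 in the other controls. Igf1r, the receptor through which IGF2 signals, had -0.30 (limma adjusted p = 0.253).

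Grb10 was at 416, 478 and 394 RPKM in controls and at 357, 312 and 347 in mutants. Every mutant library was below every control, at means of 429 ± 43.4 and 339 ± 23.6 RPKM (SD, n = 3 each). The log2 difference was -0.34 (SE 0.15; limma adjusted p = 0.234), so Grb10 did not pass. Gnas had 135, 156 and 114 RPKM against 121, 109 and 122, with overlapping groups and a log2 difference of -0.19 (limma adjusted p = 0.47), which was 0.02 after quantile normalization. Reads of its alternative promoters were not separated in the table. Mest was at 772, 753 and 794 RPKM in controls and at 698, 756 and 742 in mutants. The groups of Mest overlapped, with a log2 difference of -0.08 (SE 0.15; limma adjusted p = 0.781) that was 0.02 under median-of-ratios scaling and 0.10 after quantile normalization. Mest shares 23.1% of its exon bases with Copg2 on the opposite strand.

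Among the zinc finger genes, Plagl1 (Entrez Gene 22634), a transcription factor known to act on other imprinted genes, was closest to the threshold. It was at 9.18, 9.65 and 7.22 RPKM in controls and at 12, 17.1 and 13.4 in mutants. The groups did not overlap, and the means were 8.68 ± 1.29 and 14.2 ± 2.6 RPKM (SD, n = 3 each). Its log2 difference was 0.67 (SE 0.17) with a limma adjusted p of 0.052. Plagl1 passed in 7 of the 17 alternative analyses, among them median-of-ratios scaling (limma adjusted p = 0.0445), voom (0.012) and the fit without control 2 (0.0248), and its adjusted p ranged from 0.012 to 0.589.

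Peg3 was at 110, 113 and 141 RPKM in controls and at 84.8, 81.2 and 94.9 in mutants. Zim1, a maternally read zinc finger gene beside it, was at 5.68, 3.84 and 7.06 against 3.2, 3.56 and 3.1. In both genes every mutant library was below every control, although Zim1 of control 2 came close to the mutants. Log2 fold changes were -0.47 (SE 0.14; limma adjusted p = 0.102) for Peg3 and -0.64 (SE 0.20; 0.119) for Zim1. By voom, Peg3 passed at an adjusted p of 0.0389, and its adjusted p ranged from 0.0389 to 0.724 over the alternatives. Without control 2 Zim1 passed at -0.85 (limma adjusted p = 0.0137), without control 3 it was at -0.45 (0.156), and its range was 0.0137 to 0.539. Usp29, a ubiquitin-specific protease gene read from the paternal copy in the opposite direction to Peg3, was at 0.496, 0.458 and 0.68 RPKM against 0.388, 0.408 and 0.564, with overlap. Usp29 and Peg3 start from the same region at very different levels, which is why that region is shown: RefSeq (GRCm38.p6) places the Peg3 promoter at chr7:6730370-6730669 on the minus strand, and CpGs are in capitals.
Peg3: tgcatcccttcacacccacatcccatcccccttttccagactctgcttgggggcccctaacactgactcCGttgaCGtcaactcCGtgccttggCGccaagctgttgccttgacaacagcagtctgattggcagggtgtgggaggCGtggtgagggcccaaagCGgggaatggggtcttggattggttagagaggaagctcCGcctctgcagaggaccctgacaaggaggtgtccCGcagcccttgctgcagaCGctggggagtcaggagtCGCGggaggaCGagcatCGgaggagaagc
It held 13 CpGs, and 37.9% of the 32851 promoters held at least as many. Of its bases, 263 are also in the promoter of Usp29, read from the other strand.

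Among the long non-coding RNAs, Airn, which overlaps Igf2r on the opposite strand and silences the paternal Igf2r copy in mouse tissues, was at 8.42, 5.7 and 10.4 RPKM in controls and at 11.5, 10.9 and 17.8 in mutants. All mutant libraries lay above all controls, by a small margin between mutant 2 and control 3. The log2 difference was 0.69 (SE 0.23; limma adjusted p = 0.135), and without control 3 it was 0.87 (limma adjusted p = 0.0197). Without control 2 it was 0.46 (limma adjusted p = 0.255) and without mutant 3 it was 0.47 (0.279); the adjusted p ranged from 0.0197 to 0.674 over the alternatives. Igf2r, given above, had a value of -0.07. The table counts Airn over 2188 bases, while its gene spans chr17:12741311-12859884, so unspliced Airn outside those bases was not counted.

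Kcnq1ot1, the antisense RNA of the Kcnq1 cluster, was at 7.77, 3.84 and 9.6 RPKM in controls and at 8.04, 8.12 and 11.8 in mutants. The groups overlapped, with a log2 difference of 0.44 (SE 0.27; limma adjusted p = 0.379). Without control 2, the lowest library, the difference was 0.08, without mutant 3 it was 0.27 and without control 3 it was 0.69, and none of these passed. Its length in the table, 83437 bases, is the whole span of the gene. Kcnq1, the potassium channel gene in which it lies, had 2, 3 and 0 reads in controls and 6, 2 and 8 in mutants. Reads of the pair cannot be told apart where their exons overlap, over 121 bases.

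In the Dlk1-Dio3 cluster, Meg3, Rian and Mirg are read from the maternal copy, one after the other. Meg3 was at 1.23, 0.791 and 1.22 RPKM in controls and at 1.5, 1.77 and 2.14 in mutants, without overlap. Its log2 difference was 0.55 (SE 0.20; limma adjusted p = 0.178; 0.0281 by voom, and 0.0281 to 0.759 over the alternatives). Rian had 3.72, 3.53 and 3.1 RPKM against 3.25, 4.09 and 4.56 (log2 difference 0.17, limma adjusted p = 0.582), and Mirg had 0.391, 0.66 and 0.52 against 0.508, 0.803 and 0.613 (0.16, limma adjusted p = 0.696). The groups of Rian and of Mirg overlapped. Control 2 was the lowest library for Meg3, Airn and Kcnq1ot1, and also for Snhg14, a long non-coding RNA of the Snrpn region (5.63, 3.18 and 6.23 RPKM in controls and 5.03, 4.23 and 4.58 in mutants). The protein-coding genes of the Dlk1-Dio3 cluster lay under the minimum: Rtl1, derived from a retrotransposon, was at 0.0136 to 0.188 RPKM over the 6 libraries, and Dio3, which inactivates thyroid hormone, had 1 to 12 reads.

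H19 was at 372, 501 and 278 RPKM in controls and at 317, 310 and 356 in mutants. Control 2 was the highest and control 3 the lowest of all 6 libraries, and the mutants lay between them. The log2 difference was -0.19 (SE 0.20; limma adjusted p = 0.597), and without control 2 it was 0.02. The control standard deviation of H19, 112 RPKM, was well above that of the mutants, 24.6.

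**Figure D4:**
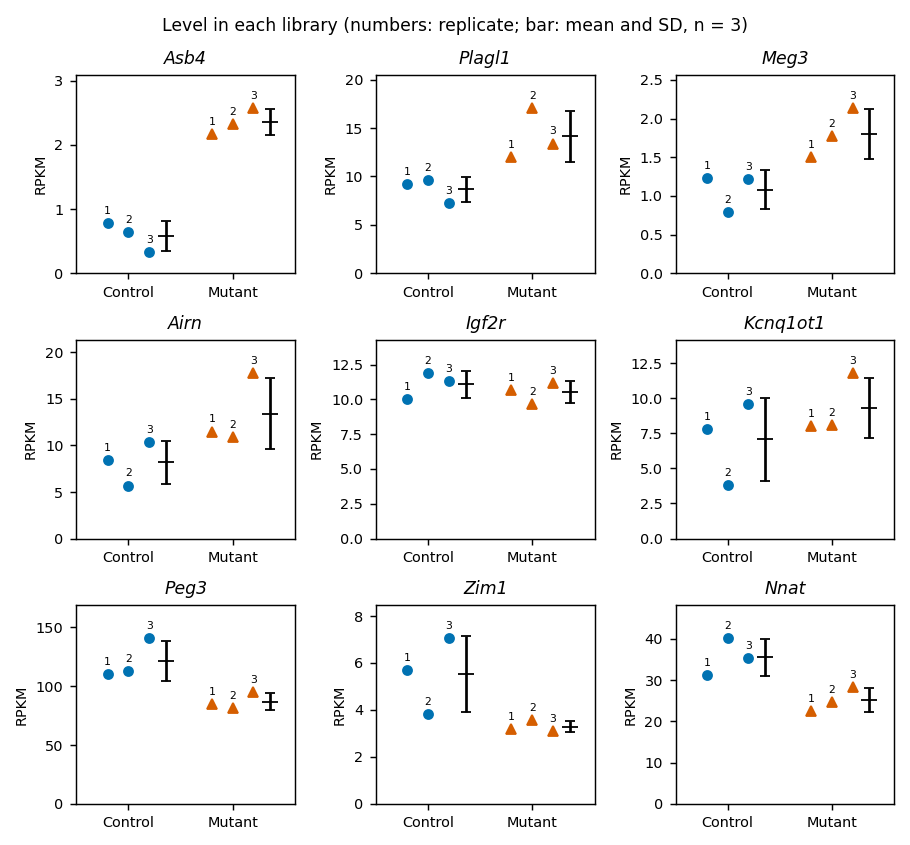
RPKM in each library for 9 imprinted genes, 1 panel per gene with its own axis from 0; points are libraries, the numbers are replicate numbers and the bars are the mean and SD of each genotype (n = 3). Asb4 is at 0.325 to 0.785 RPKM in controls and 2.17 to 2.58 in mutants, Plagl1, Meg3 and Airn lie higher and Peg3, Zim1 and Nnat lower in mutants without overlap, and Igf2r and Kcnq1ot1 overlap.

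The tested genes of the Snrpn region, which are read from the paternal copy apart from Ube3a, had negative log2 differences and none passed. Ndn, a MAGE family gene linked to growth arrest, was at 29, 26.6 and 20.9 RPKM in controls and at 16.2, 16.2 and 20.1 in mutants. The groups did not overlap, though control 3 and mutant 3 were close. Its log2 difference was -0.52 (SE 0.15; limma adjusted p = 0.0998), and -0.66 without control 3 (limma adjusted p = 0.0137; 0.0137 to 0.354 over the alternatives). Mkrn3, a ubiquitin ligase gene, had -0.36 and Peg12 -0.28, while Ube3a, a ubiquitin ligase gene read from the maternal copy in neurons, had -0.12. Each of these 3 had overlapping groups. Ube3a shares 8.7% of its exon bases with Snhg14. Magel2, a MAGE family gene, had 4 to 24 reads per library, and Snrpn, a gene of the splicing machinery, was listed at 0 in all 6 libraries, as was the Snurf entry with which it shares 216 exon bases. Snrpn also shares 589 exon bases with Gm38393 on the same strand. How reads on shared bases were counted is not given, so whether Snrpn was transcribed cannot be told from these values.

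Nnat, which encodes a small proteolipid of the endoplasmic reticulum, lies inside an intron of Blcap; Nnat is read from the paternal copy, and Blcap is known to be imprinted in the brain. Nnat was at 31.2, 40.2 and 35.3 RPKM in controls and at 22.4, 24.7 and 28.3 in mutants. Blcap was at 8.89, 10.4 and 7.28 against 5.8, 5.78 and 6.1. For both genes every mutant library was below every control. The log2 differences were -0.49 (SE 0.14; limma adjusted p = 0.0972) for Nnat and -0.54 (SE 0.16; 0.0975) for Blcap. Without control 3, Blcap passed at -0.66 (limma adjusted p = 0.0214; 0.0214 to 0.581 over the alternatives).

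Other pairs consist of a retrogene inside an intron of its host. Mcts2, a retrogene for a translation factor, was at 39.8, 28.7 and 39.4 RPKM in controls and at 23.4, 28.2 and 29.1 in mutants. The groups overlapped through control 2 and mutant 3, with a log2 difference of -0.40 (SE 0.16; limma adjusted p = 0.194), and without control 2 Mcts2 passed at -0.56 (limma adjusted p = 0.045; 0.045 to 0.502 over the alternatives). Its host H13, a signal peptide peptidase, had 11.9, 9.61 and 13.1 RPKM against 10.3, 10.8 and 13.6 (log2 difference 0.00, limma adjusted p = 0.992). Zrsr1, a retrogene for a splicing factor, had 4.67, 3.68 and 4.41 RPKM against 3.91, 3.95 and 4.5 (log2 difference -0.04, limma adjusted p = 0.908; 0.05 under median-of-ratios scaling). Commd1, its host, which acts in copper handling and vesicle traffic, had 28.7, 33.1 and 18.8 RPKM against 26.9, 28.1 and 28.3 (0.08, limma adjusted p = 0.81), and -0.15 without control 3. Both pairs overlapped between groups. Zrsr1 and Commd1 share 412 exon bases on opposite strands, and Mcts2 resembles its parent gene, so that these reads are uncertain.

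The remaining tested genes were Inpp5f, an inositol phosphatase gene, Slc38a4, an amino acid transporter gene, and Impact, a regulator of translation, with means of 22.6, 23.6 and 25.1 RPKM and log2 differences of -0.14, 0.08 and -0.09. Their groups overlapped. Of the genes under the minimum, Phlda2, which restricts placental growth, had 0 to 11 reads per library, Slc22a18, a transporter gene, 3 to 12, and Nap1l5, of a histone chaperone family, 10 to 27. No test was made on any of these.

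A further 38 imprinted genes outside the set were looked up, of which 35 were in the table and 22 were tested. None passed by limma or by voom, 6 had an unadjusted limma p under 0.05 (3 higher, 3 lower; 19.6% over all genes, with 5.94% higher and 13.7% lower), and the median log2 difference was -0.06. Tnfrsf22, a decoy receptor gene of the distal Kcnq1 region, was at 5.67, 3.97 and 7.64 RPKM in controls and at 7.89, 8.69 and 9.62 in mutants (log2 difference 0.60, limma adjusted p = 0.144). Ago2, the Argonaute protein that carries microRNAs, had 13.1, 15.4 and 15.8 against 11.3, 9.38 and 12.2 RPKM (-0.42, limma adjusted p = 0.158). Neither gene's groups overlapped. Pon2, given above, is the gene of this list with the lowest p.

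Among 22 genes that set or keep imprints, 19 were tested. By limma none passed, 5 had an unadjusted p under 0.05, all lower in mutants, beside 19.6% of all genes tested and 13.7% lower. Their median log2 difference was -0.16, close to -0.12 over all genes. Dnmt3a, the methyltransferase that sets imprints in the germ line, was at 34, 37.3 and 34.1 RPKM in controls and at 25.7, 23 and 28 in mutants. Its groups did not overlap, and its log2 difference was -0.45 (SE 0.13; limma adjusted p = 0.0894), with a call by voom. Setdb1, a histone methyltransferase recruited by zinc finger proteins, had -0.34 (limma adjusted p = 0.202), and Dnmt1, which copies methylation at replication, had -0.30 (0.222).

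The microRNAs of the floxed cluster pair with target sites through their seed, bases 2 to 8. Their mature sequences (RefSeq, GRCm38.p6, all on chromosome 14) are shown so that sites can be set against them, with the seed in capitals.
miR-17-5p: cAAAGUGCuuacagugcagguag
miR-20a-5p: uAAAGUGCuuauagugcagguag
miR-18a-5p: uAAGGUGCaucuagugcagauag
miR-19a-3p: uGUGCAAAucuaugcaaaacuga
miR-19b-3p: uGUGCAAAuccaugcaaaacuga
miR-92a-3p: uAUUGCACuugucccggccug
miR-17-5p and miR-20a-5p share a seed, miR-19a-3p and miR-19b-3p share another, and miR-18a-5p and miR-92a-3p each have their own.

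An 8-base site, the reverse complement of the seed followed by A, was searched on the transcript strand of the longest annotated 3′ UTR (GENCODE M21). The 4 sites searched were GCACTTTA, GCACCTTA, TTTGCACA and GTGCAATA, and none of them contains another. At least 1 was found in 4 of the 25 tested imprinted genes with a 3′ UTR, beside 14.7% of the 11576 tested genes with one. Site by site, GCACTTTA was in 4.7% of those genes, GCACCTTA in 1.9%, TTTGCACA in 6.6% and GTGCAATA in 3%. Including untested genes, 6 of 35 held a site, shown in 30-base windows with the match in capitals.
Usp29, site for miR-17 and miR-20a: agaatttaaaaGCACTTTAaagtgccaaat
Peg10, site for miR-18a: ccatatgctggGCACCTTAtaaaggaagcc
Igf2r, site for miR-19a and miR-19b: agaagccttaaTTTGCACAgggtgacttat
Grb10, site for miR-19a and miR-19b: atcgccagcccTTTGCACAggcagctggga
Peg10, site for miR-19a and miR-19b: gctgccggatgTTTGCACAgataccttcta
Dlk1, site for miR-19a and miR-19b: ccccaccaaggTTTGCACAggctttagtga
Zim1, site for miR-92a: ttggagcatttGTGCAATAtaaacaaacat
The tested holders were Igf2r, Grb10, Peg10 and Zim1, with log2 differences of -0.07, -0.34, 0.40 and -0.64. Their median was -0.20, beside -0.09 over the 25 imprinted genes with a 3′ UTR. Over all tested genes with a 3′ UTR the median was -0.13, and it was -0.06 for those with a site. Asb4 and Plagl1 held none of the 4 sites in this window. A match is a description of sequence, and binding was not measured.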

How the data were processed

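RNA of sorted E16.5 nephron progenitors was amplified with the Ovation V2 kit and sequenced as paired reads, per the labels' protocols. The authors deposited 1 table of RPKM values per Entrez Gene entry, already normalized for length and depth; mm10, FastQC and limma are named in the submitters' processing notes. Neither the counting tool nor its strand setting or annotation is given in the sources used here; overlapping genes may therefore share reads. Symbols were matched for 25275 of 27179 entries. Whole reads and depth were worked out from the RPKM steps, within 0.01 of a read, for 23229 of 23229 entries above 0; reads recovered this way summed to 99.71 to 99.76% of the depth, and intervals were not computed.

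Mutants were compared with controls by limma (version 3.58.1, under R 4.3.3) on values of log2(RPKM + 0.5), a scale that understates changes of low genes. The fit took the 13463 genes whose mean over the libraries reached 0.5 RPKM, with a mean-variance trend, two-sided, adjusted by Benjamini-Hochberg over all tested genes at 0.05. Replicates are pools of 4 embryos, so p-values measure the spread between pools. The alternatives were other pseudocounts (0.1 and 1), no filter, median-of-ratios scaling, quantile normalization, no mean-variance trend, robust moderation, voom on whole reads, a replicate block, leaving out each library and, added after the data were seen, a term for Xist and depth without mitochondrial ribosomal RNA. Sites and promoters were read with Python 3.11.15.

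The members and gene lists were chosen with earlier results of these data known. Values per library are given for members that passed, members with an unadjusted p under 0.05, the 6 of highest mean, nested or antisense pairs and Meg3, Rian and Mirg; for other lists, for genes that passed and up to 3 of lowest p, except that marker lists are given as sums with the genes that passed. Other genes named were chosen after their values were seen. Results for some marker genes are not reported here.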

Additional observations from a re-analysis of the deposited data

How the results depend on the processing

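Genes called numbered 422, and 143 with no filter, 688 by voom, 81 with the Xist term, 393 with the replicate block and 148 to 1083 over the fits that leave out 1 library (148 without mutant 2, 202 without mutant 1, 210 without control 1, 1083 without control 3). Imprinted genes called numbered 1, and 2 with median-of-ratios scaling, quantile normalization, robust moderation and depth without mitochondrial ribosomal RNA (Asb4 and Plagl1 each time), 4 by voom, 3 with the replicate block (Airn, Asb4 and Plagl1), 0 with the Xist term, and 1 to 4 over the fits that leave out 1 library (4 without control 2 and 4 without control 3). The further imprinted genes gave 0, and 0 to 2 without 1 library (Cdkn1c and Tnfrsf22 without control 3). The genes that keep imprints gave 0, and 1 by voom (Dnmt3a) and 0 to 3 without 1 library (Dnmt3a, Ehmt2 and Trim28 without control 3). With the Xist term, Asb4 did not pass. The cause of these changes was not tested.

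Same-numbered control and mutant libraries correlated at 0.053, 0.157 and 0.153 in their deviations from the group means. Libraries of different number correlated at -0.146 to -0.006, so each library correlated best with its own number. Deviations from a group mean cancel out within the group, so positive values for same-numbered libraries bring negative values for the others. The negative values thus add no evidence of their own, and 3 libraries per group can be matched in few ways. The labels state no pairing, and whether same-numbered libraries were handled together was not tested. With the block the limma adjusted p was 0.0392 for Airn and 0.0444 for Plagl1.

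Signs changed in 24 of 391 values of 23 named genes under 17 alternatives, 351 kept direction and side of the threshold, 15 passed newly and 1 no longer passed. With median-of-ratios scaling the values were 0.07 for Igf2, 0.03 for Igf2r, 0.02 for Mest and 0.05 for Zrsr1. With quantile normalization they were 0.14 for Igf2, 0.05 for Igf2r, 0.10 for Mest, 0.02 for Gnas and 0.05 for Zrsr1. With depth without mitochondrial ribosomal RNA they were 0.09 for Igf2, 0.05 for Igf2r, 0.04 for Mest and 0.07 for Zrsr1. With the Xist term they were 0.10 for Igf2, 0.06 for Igf2r, -0.04 for Commd1 and -0.06 for H13. Without 1 library, Igf2 ranged from -0.18 to 0.10 (above 0 without control 3, at 0.06, and mutant 1), H19 from -0.40 to 0.02 (control 2), Zrsr1 from -0.13 to 0.03 (control 1), Commd1 from -0.15 (control 3) to 0.25, and H13 from -0.12 to 0.10 (below 0 without control 2 and, at -0.11, mutant 3). None of these values passed the test.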
